A study of Mus musculus with 5 samples.

Results

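The minor strands of microRNA (miRNA) hairpins, which the annotation marks with an asterisk and calls star strands, were examined in small RNA libraries of mouse testis cells. Every name ending in an asterisk was taken and set against the same name without the asterisk, its major strand, in the same library. This gave 117 star names of 593 miRNA names with a count. Of these, 106 had a major strand of the same name, and 11 had no such partner (let-7c-1*, let-7c-2*, miR-125b*, miR-181a-1*, miR-181a-2*, miR-218-1*, miR-218-2*, miR-24-1*, miR-24-2*, miR-30c-1* and miR-30c-2*). Their names carried a copy number, except miR-125b*, for which the other names carried the arm (miR-125b-5p and miR-125b-3p). A further 63 pairs whose strands are named 5p and 3p served as comparison.

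A miRNA is cut from a hairpin as a short duplex of strands. As a rule, 1 strand is loaded into an Argonaute protein as the guide, and the other, the passenger or star strand, is discarded. The guide finds its target mRNAs mainly through its seed, the bases just behind its 5′ end, so the star strand of a hairpin has other targets than the major strand. Strand choice is known to depend on the stability of the duplex ends and on the first base. The ratio of star to major counts, called arm balance here, is taken within a library and does not depend on how libraries are scaled.

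All cells came from the testis of C57BL/6 mice. The Thy1+ group (2 libraries) held cells retained by an antibody against Thy1.2 on magnetic beads, a way to enrich spermatogonial stem cells, the self-renewing founders of sperm. The Thy1- group (2 libraries) held freshly isolated cells depleted of them and enriched for somatic cells, although its cell type label repeats the stem cell name. The culture group (1 library) was a germ cell culture grown from Thy1+ enriched cells for about 10 passages. The labels give no animal age, do not say whether replicates came from separate animals, and name 2 library protocols (the standard small RNA protocol and an alternative v1.5) without saying which library used which, so p-values measure only the spread between these libraries. Bulk libraries cannot tell fewer cells of a type from less RNA per cell.

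The total of miRNA counts was 937002 and 947687 in Thy1+, 2548234 and 4909753 in Thy1-, and 5110007 in culture. Between 102 and 112 star names had a count in each library, and 92 had a count in all 5. Summed germ line markers (miR-34c, miR-449a, miR-880 and miR-741) stood at 70673 to 171413 counts per 1000000 miRNA counts (CPM) in Thy1+, 14718 to 58744 in Thy1- and 218635 in culture. The sum in culture was mostly miR-34c, at 999172 of the 5110007 counts. Set against the library totals, miR-449a, miR-880 and miR-741 were each lower in culture than in both Thy1+ libraries. By the same measure, miR-880 and miR-741 were each higher in both Thy1+ libraries than in both Thy1- libraries. For miR-34c and miR-449a the Thy1+ and Thy1- libraries overlapped, with Thy1+ replicate 2 below Thy1- replicate 1. The 5 white blood cell markers summed to 14904 to 26540 CPM in Thy1+, 1346 to 2017 in Thy1- and 937 in culture, with none at 0. The gonadal pair miR-202-5p and miR-202-3p summed to 1138 to 2205 CPM in Thy1+, 3712 to 18584 in Thy1- and 173 in culture. The mesenchymal markers (miR-143, miR-145, miR-199a-3p and miR-214) summed to 21930 to 27584 CPM in Thy1+, 20129 to 37487 in Thy1- and 50443 in culture. Of these, miR-145 was lowest in culture, set against the library totals.

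The strands on which the results turn are given from RefSeq on build GRCm38.p6, 5′ to 3′, with the seed (bases 2 to 8) in capitals. RefSeq entries matched 89 of the 117 star names and 82 of the 106 major names. The first set holds pairs in which the star strand was more abundant than the major strand in some libraries or close to it. In miR-30e and miR-30a the major strands share a seed and the star strands share another.
miR-30e*: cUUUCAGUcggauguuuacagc
miR-30e: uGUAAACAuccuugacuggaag
miR-30a*: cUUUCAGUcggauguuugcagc
miR-30a: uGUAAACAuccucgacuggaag
miR-140*: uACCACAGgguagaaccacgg
miR-376b*: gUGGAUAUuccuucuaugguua
miR-376b: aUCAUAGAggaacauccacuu
miR-154*: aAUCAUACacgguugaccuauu
miR-154: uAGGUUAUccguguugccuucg
miR-30e* lies at chr4:120772618-120772639 on the minus strand in an intron of Nfyc, and miR-30a* at chr1:23272315-23272336 on the plus strand. miR-140* lies at chr8:107551288-107551308 on the plus strand in an exon of Wwp2. miR-376b* lies at chr12:109723471-109723492 and miR-154* at chr12:109738474-109738495, both on the plus strand, the latter in an intron of the non-coding gene Mirg.

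The second set holds pairs whose star strand differed between the cell populations.
miR-183*: gUGAAUUAccgaagggccauaa
miR-183: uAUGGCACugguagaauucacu
miR-29a*: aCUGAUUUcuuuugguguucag
miR-29a: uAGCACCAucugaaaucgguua
miR-294*: aCUCAAAAuggaggcccuaucu
miR-294: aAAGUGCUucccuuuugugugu
miR-17*: aCUGCAGUgagggcacuuguag
miR-17: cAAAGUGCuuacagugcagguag
miR-127*: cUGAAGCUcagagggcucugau
miR-127: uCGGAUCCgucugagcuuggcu
miR-21*: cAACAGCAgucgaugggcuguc
miR-21: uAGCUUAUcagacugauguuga
miR-183* lies at chr6:30169672-30169693 on the minus strand and miR-29a* at chr6:31062711-31062732 on the minus strand. miR-294* lies at chr7:3220655-3220676 on the plus strand, opposite an exon of Nlrp12. miR-17* lies at chr14:115043721-115043742 in an exon of the non-coding host gene Mir17hg. miR-127* lies at chr12:109592854-109592875 on the plus strand, opposite an exon of Rtl1, and miR-21* at chr11:86584082-86584103 on the minus strand in an exon of Vmp1.

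Star and major strands differed in their sequence. Of the 89 matched star strands, 31 began with C, 29 with A, 16 with U and 13 with G, and 55 lay on the 3′ arm of the hairpin against 34 on the 5′ arm. Of the 82 matched major strands, 48 began with U, 20 with A, 8 with C and 6 with G, and 48 lay on the 5′ arm. The median GC content was 50% for star and 42.9% for major strands. The most frequent perfectly matching tag began at the annotated first base for all 106 major strands and for 103 of 117 star strands.

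For 5 star strands with a RefSeq entry and at least 50 perfectly matching counts, the most frequent such tag began at the second base, which shifts the seed by 1 base relative to the sequence shown above. For miR-183* this held for 96.8% and 93.4% of perfectly matching counts in Thy1+, 86.7% and 70.6% in Thy1-, and 93.9% in culture. For miR-376a* the share was 83.3% to 90.5% across the 5 libraries, on 6 counts in culture and 74 to 329 in the fresh libraries. For let-7g* it was 94.7% and 90.9% in Thy1- (57 and 33 counts), with 3 and 4 counts in Thy1+ and 5 in culture all at the second base. The start was less uniform for miR-10b*, at 49.1% to 69.2% on 9 to 171 counts per library. For miR-330* the share was 26.7% to 55.5% on 11 to 119 counts. The shifted start of miR-183* was thus the main one in every library, on 15 and 17 counts in Thy1- and 82 to 188 elsewhere. For miR-376a* in culture and let-7g* in Thy1+ and culture the shifted start rests on a handful of counts. Star strands also shared seeds: let-7a*, let-7b*, let-7f* and let-7c-2* carried UAUACAA, miR-30a* and miR-30e* UUUCAGU, miR-17* and miR-20b* CUGCAGU, and miR-376b* and miR-376c* UGGAUAU.

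Star strands made up a small part of the miRNA pool. They took 1.66% and 2.15% of all miRNA counts in Thy1+, 1.68% and 2.04% in Thy1-, and 0.799% in culture. Of the counts on star and major strands together, the star share was 2.81% (95% Clopper-Pearson interval 2.76% to 2.86%) and 4.14% (4.09% to 4.20%) in Thy1+, 2.51% (2.48% to 2.53%) and 3.15% (3.13% to 3.17%) in Thy1-, and 0.993% (0.983% to 1.00%) in culture. The culture lay below all 4 fresh libraries. This pooled share weighs each pair by its counts. In culture miR-34c, let-7f, miR-21 and let-7a had 999172, 631330, 607738 and 444492 of the 3536197 major counts. These intervals cover counting error only, since reads carried no molecular identifiers.

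The pooled star share averaged 3.48% ± 0.944 (SD, n = 2) in Thy1+ and 2.83% ± 0.455 (SD, n = 2) in Thy1-, and the libraries overlapped (two-sided exact permutation p = 0.667, where 0.33 is the smallest that 2 against 2 allow). Its direction rested on Thy1+ replicate 2: without that library, Thy1+ minus Thy1- was -0.0198 percentage points in place of 0.648. It was -0.403 points over pairs whose major strand lies in 1 RefSeq hairpin, a setting chosen after seeing the data. The median star share over pairs with at least 50 counts, which gives each pair equal weight, was 2.49% and 3.18% in Thy1+, 1.89% and 1.78% in Thy1-, and 1.43% in culture. By that measure the Thy1+ and Thy1- libraries did not overlap (exact permutation p = 0.33).

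A few star strands held much of the star pool. miR-30e*, miR-140* and miR-30a* together took 47.3% and 45.9% of paired star counts in Thy1+, 40.4% and 60.3% in Thy1- and 57.1% in culture. Of the 117 star names, 18 had under 10 counts over all libraries. The distribution over pairs was wide in every library. Pairs with a star share under 1% numbered 35 and 32 in Thy1+, 35 and 38 in Thy1-, and 37 in culture, of 83 to 94 pairs with at least 50 counts.

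**Figure D1:**
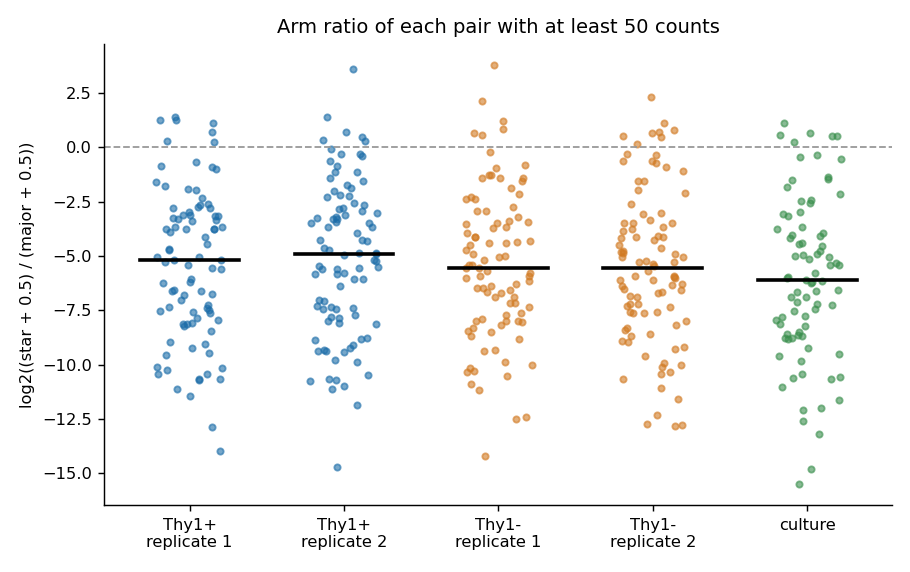
Each point is a star and major pair with at least 50 counts in that library, the vertical axis is the log2 ratio of star to major counts (0.5 added to each), and the bar is the median. Most pairs lie far below the dashed line of equal arms in all 5 libraries, and 6 to 8 pairs per library lie above it.

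Star shares were also set against the first base, over the 78 pairs with at least 50 counts in all 5 libraries (median share 2.21%), as a description. First base and arm were known only for strands matched to RefSeq, so pairs without a match, such as miR-28*, are missing from the groups below. The 10 pairs whose star begins with U had a median share of 8.80%, against 2.14% for 23 beginning with A, 2.0% for 7 with G and 1.83% for 20 with C. Where the major strand began with U the median was 1.69% (36 pairs), and where it began with A 4.45% (16 pairs). Within the U stars the pairs were far apart: the 4 with an A major had a median of 22.9% and the 5 with a U major 1.0%, below the median of every first base of the star. Stars on the 5′ arm had a median of 3.09% (20 pairs) and those on the 3′ arm 1.88% (40 pairs).

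In some hairpins the strand named star was the more abundant one. Of 97 pairs with at least 50 counts in a library, 5 had the star above the major in every such library, 6 in some of them and 86 in none. Between 6 and 8 pairs per library were of this kind.

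miR-28* exceeded miR-28 in all 5 libraries, with star shares of 68.6% and 58.4% in Thy1+, 61.4% and 62.1% in Thy1-, and 61.3% in culture. Its share thus stayed between 58.4% and 68.6%, while its level varied more. The level was 1304 ± 17.2 CPM in Thy1+ and 1111 ± 285 in Thy1- (SD, n = 2) and 522 CPM in culture. miR-376b* exceeded miR-376b in all 5, with shares of 73.0% and 55.6% in Thy1+, 81.4% and 63.8% in Thy1-, and 54.5% in culture (30 star and 25 major counts). Both the shares and the counts show that the name star does not mark the minor product here.

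miR-455* held 93.0% of its pair in Thy1+ replicate 2, 93.5% and 83.4% in Thy1-, and 68.5% in culture. In Thy1+ replicate 1 the pair had too few counts to enter, with 18 on the star. miR-154* held 72.7% in Thy1+ replicate 2 and 70.2% and 59.0% in Thy1-, and miR-431* held 61.8% in Thy1- replicate 2, the only library in which that pair had 50 counts. miR-154* and miR-376b* belong to the imprinted Dlk1-Dio3 cluster on chromosome 12.

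miR-30e* and miR-140* were above their major strand in 4 of 5 libraries, and the exception was Thy1- replicate 1 in both. miR-30e* had 3007 and 5141 counts in Thy1+, 5592 and 21022 in Thy1-, and 9153 in culture. Its share was 54.6% and 62.0% in Thy1+, 25.5% and 52.5% in Thy1-, and 58.8% in culture. The share of miR-140*, a strand known from cartilage, was 70.8% and 55.4% in Thy1+, 46.2% and 68.4% in Thy1-, and 58.9% in culture.

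miR-30a* came close to its major strand, with 35.4% and 39.5% in Thy1+, 18.7% and 39.0% in Thy1-, and 40.7% in culture. In miR-30e and miR-30a, which share star seeds and major seeds, the same library, Thy1- replicate 1, was lowest. That library was highest for miR-17*, at 27.2% against 5.32% to 10.6% in the others, and for miR-872*, at 17.2% against 3.21% to 8.33%. Replicate libraries of the Thy1- group therefore differed in arm balance in both directions.

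The other pairs changed sides between libraries. miR-214*, of a mesenchymal hairpin, held 70.9% and 48.9% in Thy1+, 64.1% and 58.2% in Thy1-, and 43.7% in culture. miR-376a* held 62.3% and 45.0% in Thy1+ and 59.7% and 44.5% in Thy1-. miR-674* exceeded its major in culture alone, at 59.8% against 33.8% to 42.8% in the fresh libraries, and miR-193* in Thy1+ replicate 1 alone, at 55.2% against 18.3% to 44.8%. For miR-214* and miR-376a* the replicates of a group fell on different sides of equal arms or far apart.

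**Figure D2:**
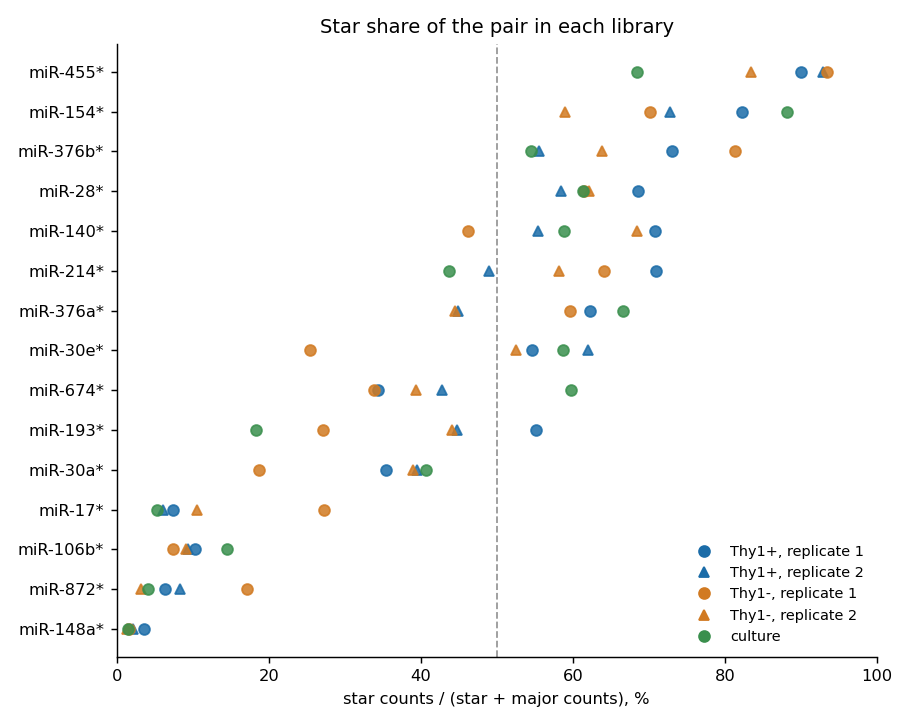
Each row is a pair, the horizontal axis is the star's percentage of star plus major counts, and each symbol is 1 library. The pairs are the abundant ones and those in which the star exceeded the major (dashed line, equal arms). miR-28* stays between 58.4% and 68.6%, while miR-30e* runs from 25.5% in Thy1- replicate 1 to 62.0% in Thy1+ replicate 2.

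Of the abundant star strands without a pair by name, miR-181a-1* stood at 711 ± 247 CPM in Thy1+, 1099 ± 294 in Thy1- (SD, n = 2) and 199 in culture. Only 22.4% of its counts matched the strand without mismatch. miR-24-2* stood at 355 ± 48.9 CPM in Thy1+, 144 ± 9.89 in Thy1- (SD, n = 2) and 563 in culture. Among pairs with a low share, miR-106b* held 7.38% to 14.5%, and miR-148a* 3.60% and 2.14% in Thy1+ against 1.62% and 1.42% in Thy1-.

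Levels of star strands were first compared between Thy1+ and Thy1-, which asks which strands mark the stem cell enriched fraction. In Thy1+, 11 of 83 star names tested were higher (13.3%) and 8 lower (9.64%). They rose for miR-183, miR-29, the embryonic miR-290 to miR-295 cluster, the miR-467 hairpins of the Sfmbt2 cluster, miR-10a, miR-135a and miR-150. They fell for let-7, miR-322, miR-503, miR-17 and miR-99b. Calls were made with edgeR's quasi-likelihood test at an adjusted p (Benjamini-Hochberg over all names tested) under 0.05. Over all 425 names tested, 20.2% were higher and 7.76% lower. The median log2 fold change was -0.18 for star names and -0.07 for all names. Fold changes are relative to the bulk of miRNAs (TMM scaling), and with scaling to total counts, which moved the log2 fold changes of all names by a median of 0.56, the split of star calls was 14 higher and 1 lower. Leaving out Thy1+ replicate 1 or Thy1+ replicate 2 left 0 star calls, with 15 and 16 at an unadjusted p under 0.05.

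miR-183*, from a cluster known from sensory organs, had 224 and 101 counts in Thy1+, 19 and 24 in Thy1-, and 94 in culture. That is 239 and 107 CPM in Thy1+ against 7.46 and 4.89 in Thy1-, with no overlap. Its log2 fold change of 4.32 (SE 0.71) had an edgeR adjusted p of 0.012, and miR-183 itself was higher by 3.33 (SE 0.47).

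The miR-29 stars rose with it. miR-29a* stood at 29.7 ± 0.238 CPM in Thy1+ against 1.90 ± 0.0913 in Thy1- (SD, n = 2), a log2 fold change of 3.37 (SE 0.56, edgeR adjusted p = 0.012). miR-29b* stood at 17.5 ± 2.39 against 1.40 ± 0.320 CPM, a log2 fold change of 2.98 (SE 0.62). The tested miR-29 stars were thus both higher, while miR-29c* did not pass the low-count filter.

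miR-293* and miR-294* belong to the cluster that is abundant in embryonic stem cells, and both tested stars of it were higher. miR-293* had 183 and 713 CPM in Thy1+ against 31.8 and 17.1 in Thy1- (log2 fold change 3.60, SE 0.75). miR-294* had 9 and 45 counts in Thy1+ against 3 and 3 in Thy1- (log2 fold change 4.38, SE 0.87). For both, Thy1+ replicate 2 was the higher library of the pair. All 3 tested stars of the Sfmbt2 cluster were higher, miR-467e* by 2.46 (SE 0.67) and miR-467a* and miR-467d*, whose tags are all shared and form 1 measurement, by 2.16 (SE 0.56). miR-10a*, of a Hox cluster, was higher by 2.40 (SE 0.63).

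miR-150*, of a lymphocyte hairpin, had 8 and 11 counts in Thy1+, 1 and 1 in Thy1-, and 0 in culture. The ratio of Thy1+ to Thy1- was 24.8 with a 95% counting interval of 5.97 to 219, and its major miR-150 was higher by a log2 fold change of 5.04 (SE 0.89). The white blood cell markers, which include miR-150, were also higher in Thy1+ (levels above), and their part in the result was not tested. miR-135a* had 6 and 8 counts in Thy1+ against 0 and 3 in Thy1-, a ratio of 12.2 (3.39 to 66.0), and only 22.2% of its counts matched without mismatch.

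Among the 8 let-7 stars tested, 4 were lower in Thy1+ and none higher, with a median log2 fold change of -1.56. let-7a* and let-7c-2*, neither of them called, share all their tags and form 1 measurement. let-7 is known for promoting differentiation. let-7g* had 3 and 4 counts in Thy1+ against 62 and 35 in Thy1- (log2 fold change -2.54, SE 0.75), let-7i* changed by -1.86 (SE 0.57) and let-7c-1* by -1.66 (SE 0.52). let-7f* had 3 counts in all of Thy1+ and 71 in Thy1-, a ratio of Thy1- to Thy1+ of 9.08 (2.98 to 45.1), and 28.8% of its counts matched without mismatch. With scaling to total counts 1 of the 8 was lower.

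miR-322* and miR-503* come from neighbouring hairpins of the X chromosome, in the wider miR-15 and miR-16 family, of which 2 of 5 stars were lower (0 of 5 with scaling to total counts). miR-503* stood at 65.1 and 69.6 CPM in Thy1+ against 191 and 259 in Thy1- (log2 fold change -2.32, SE 0.57). miR-322* changed by -2.27 (SE 0.56). Both major strands were lower by nearly the same amount, miR-503 by -2.37 (SE 0.48) and miR-322 by -2.29 (SE 0.52).

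miR-17* and miR-99b* were lower as well. miR-17*, from a cluster known for promoting proliferation, stood at 420 and 304 CPM in Thy1+ against 1316 and 626 in Thy1- (log2 fold change -1.91, SE 0.56), while miR-17 did not pass (-0.41, SE 0.50). It was the only called star of 6 tested in the miR-17 clusters. miR-99b* stood at 152 ± 36.5 CPM in Thy1+ against 382 ± 39.2 in Thy1- (SD, n = 2), a log2 fold change of -1.87 (SE 0.56). No star of the miR-30 family (0 of 5), of the Dlk1-Dio3 cluster (0 of 7), of the miR-200 family (0 of 2) or of the mesenchymal list (0 of 3) was called.

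**Figure D3:**
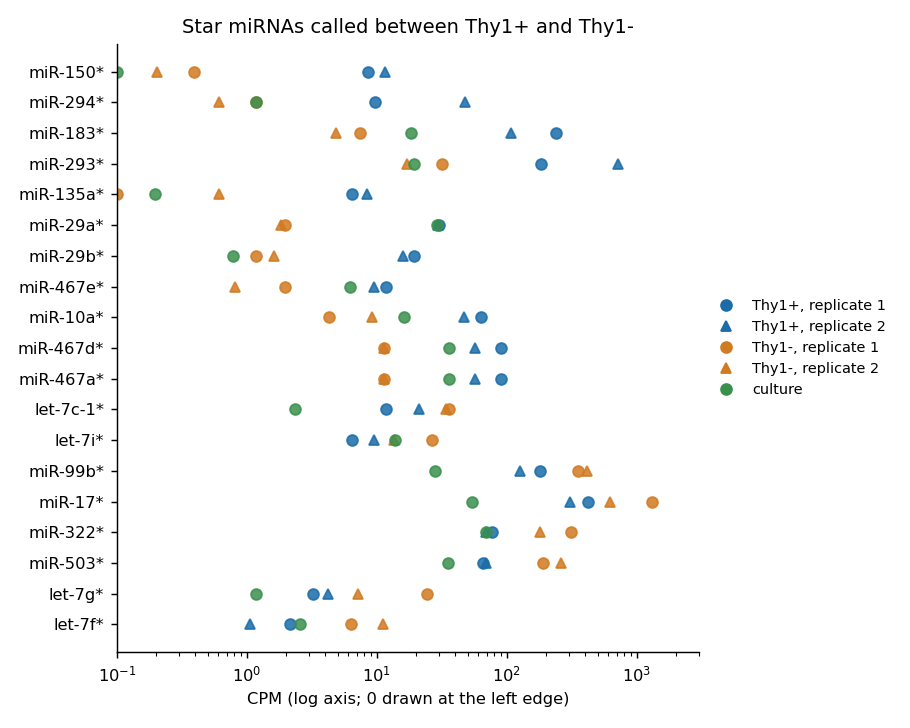
Each row is a star miRNA called between Thy1+ and Thy1-, ordered by log2 fold change, and each symbol is the CPM of 1 library on a log axis, with 0 drawn at the left edge. In the upper 11 rows the Thy1+ libraries lie to the right of the Thy1- libraries and in the lower 8 rows to the left; the culture is shown for comparison.

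Culture was then compared with the Thy1+ fraction, the kind of cells it was started from. Of 95 star names tested, 5 were higher in culture and 8 lower, against 8.94% higher and 13.4% lower among all 470 names. The stars of miR-31, miR-34c, let-7i, miR-24-2 and miR-21 rose, and 6 of the 8 that fell belonged to the Dlk1-Dio3 cluster. The median log2 fold change was 0.00 for star names and -0.09 for all names. With scaling to total counts, which moved the log2 fold changes of all names by a median of -1.65, 0 stars were higher and 34 lower. The single culture library was assumed to vary like the fresh ones. Without Thy1+ replicate 1 or without Thy1+ replicate 2 the edgeR calls came to 0 (22 and 19 at an unadjusted p under 0.05), and without Thy1- replicate 1 to 7.

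miR-34c*, of a family typical of male germ cells, had 61 and 15 counts in Thy1+, 65 and 67 in Thy1-, and 720 in culture. At 141 CPM, culture stood above all 4 fresh libraries (13.7 to 65.1 CPM), and the log2 fold change against Thy1+ was 3.38 (SE 0.86). Its share of the miR-34c pair stayed at 0.0523% to 0.160% in the 5 libraries. miR-31* rose by 3.62 (SE 1.04), from 13.9 and 16.9 CPM to 60.1.

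miR-21*, the passenger of a miRNA known from proliferating cells, had 93 and 137 counts in Thy1+, 208 and 294 in Thy1-, and 822 in culture. It rose by 2.07 (SE 0.62) against Thy1+, less than miR-21, which rose by 3.64 (SE 0.52). miR-24-2* rose by 2.33 (SE 0.61) and let-7i* by 2.44 (SE 0.66), the only let-7 star called of 8. The let-7 median of 1.24 became -0.42 with scaling to total counts, so no direction is given for the group.

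The Dlk1-Dio3 stars were low in culture. Of 10 tested, 6 were lower than in Thy1+ and 7 lower than in Thy1-, with medians of -3.81 and -3.88. With miR-431*, at 0 in culture, set to its lower bound the medians were -3.39 and -3.62. miR-127* fell from 154 and 299 CPM in Thy1+, and 223 and 215 in Thy1-, to 1.76 CPM (9 counts) in culture. miR-136* fell to 5 counts and miR-376a* to 6, with log2 fold changes against Thy1+ of -4.60 (SE 0.87) and -4.60 (SE 0.81). miR-376b* fell by 3.68 on the log2 scale (SE 1.00), miR-411* by 3.09 (SE 0.75) and miR-154* by 2.49 (SE 0.70). Their major strands were low too: miR-127 fell by 4.54 on the log2 scale (SE 0.84), and miR-376a and miR-154 were left with 3 and 2 counts in culture. All 10 tested stars had negative log2 fold changes in both comparisons, which share the culture library.

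Outside that cluster, miR-203*, of an epithelial miRNA, fell by 3.0 on the log2 scale (SE 0.78) and miR-150* was at least 5.42-fold lower in culture, taking a floor of 3 counts for its 0. No star of miR-290 to miR-295 (0 of 2), the X-linked testis cluster (0 of 4), the miR-17 clusters (0 of 7) or the miR-30 family (0 of 5) was called against Thy1+ with TMM scaling. With scaling to total counts 6 of the 7 miR-17 cluster stars and both miR-290 to miR-295 stars were lower.

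Against Thy1-, 12 of 95 stars were higher in culture and 11 lower, where all 470 names gave 18.1% higher and 16.8% lower. With scaling to total counts, which moved the log2 fold changes of all names by a median of -1.04, the split was 4 higher and 26 lower. Without Thy1+ replicate 1, without Thy1+ replicate 2 and without Thy1- replicate 1 the edgeR calls came to 11, 6 and 9. miR-29a* had 5 and 9 counts in Thy1- and 147 in culture, a log2 fold change of 4.92 (SE 0.63, edgeR adjusted p = 0.0022). miR-31* rose by 4.92 (SE 1.07), miR-34c* by 3.93 (SE 0.86), miR-467a* by 2.68 (SE 0.62), miR-183* by 2.64 (SE 0.72), miR-24-2* by 2.99 (SE 0.61) and miR-21* by 2.25 (SE 0.61). The tested Sfmbt2 stars were all higher (3 of 3), though 0 of 3 passed with scaling to total counts.

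Of the stars lower than in Thy1-, 7 were of the Dlk1-Dio3 cluster, including miR-127* (-5.90, SE 0.95), miR-136* (-5.27, SE 0.89) and miR-376a* (-5.0, SE 0.82). miR-431*, with 40 counts in Thy1- and 0 in culture, was at least 4.54-fold lower, and so was miR-431 with the same counts. miR-299* had 46 counts in Thy1- and 1 in culture, a ratio of 15.7 (2.68 to 632). miR-17* fell by 3.07 on the log2 scale (SE 0.81), let-7c-1* by 2.83 (SE 0.73), miR-99b* by 2.73 (SE 0.79) and miR-708*, chosen after its values were seen, by 2.27 (SE 0.69).

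Star and major strands of a hairpin mostly moved together. Across 73 pairs tested on both strands between Thy1+ and Thy1-, the log2 fold changes of star and major had a Spearman rho of 0.83, and 58 had the same sign. The strands share a library and a precursor, so this describes these libraries and pairs are not replicates. Of the 18 stars called with a tested major, 10 had a major called in the same direction, all 18 had one with the same sign, and none was called the opposite way. A further 5 pairs had only the major called.

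In culture against Thy1+, 85 pairs gave a rho of 0.72, and 9 of 12 called stars had a major called in the same direction. Against Thy1-, 85 pairs gave 0.78 and 18 of 21 called stars had a major called in the same direction. No star and its major were called in opposite directions in either comparison. In 15 pairs of each culture comparison the major was called and the star was not. Examples of stars that passed where the major did not were miR-10a*, miR-29b* and miR-17* in Thy1+ against Thy1-, and miR-203* in culture against Thy1+. The major miR-29b missed the threshold narrowly, with a log2 fold change of 2.05 (SE 0.65, edgeR adjusted p = 0.05002). Passing on 1 strand alone is not a test of a change in arm balance, which follows.

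**Figure D4:**
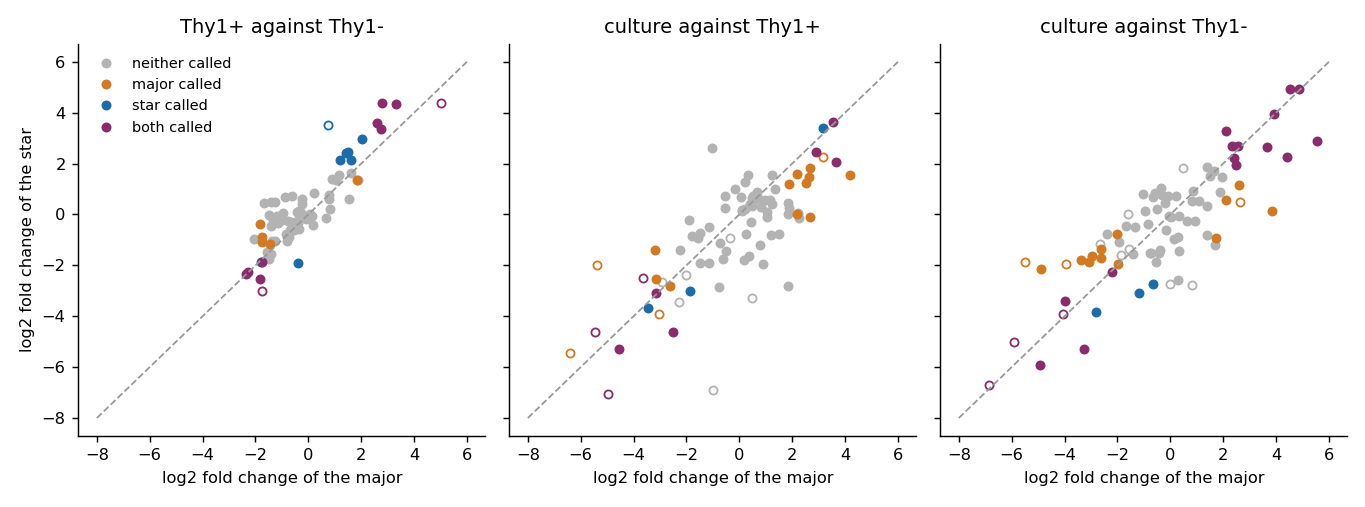
Each point is a pair, with the log2 fold change of the major strand on the horizontal and of the star strand on the vertical axis, for the 3 comparisons, and the dashed line marks equal change. Open points have a strand with 3 or fewer counts in a group, whose fitted value depends on the prior count. Points called on both strands lie in the lower left and upper right of all 3 panels.

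The arm balance itself was tested in 1 edgeR model over both strands. No pair was called in any of the 3 comparisons: 0 of 82 star pairs between Thy1+ and Thy1- (0.0% of 131 pairs), 0 of 76 between culture and Thy1+ (0.0% of 120) and 0 of 76 between culture and Thy1- (0.0% of 120). At an unadjusted edgeR p under 0.05 there were 5, 11 and 8 star pairs, and limma on the log2 ratios also called 0. The smallest edgeR adjusted p of a star pair was 0.65, 0.26 and 0.42. The median size of the change was 0.56, 0.86 and 1.00 on the log2 scale, against a median SE of 0.75, 0.93 and 0.91. The typical change was thus about as large as its error, and changes in arm balance of that size were not detectable with these libraries.

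The replicates differed in arm balance too. The log2 ratio differed between the 2 Thy1+ libraries by a median of 0.58 over 88 pairs, with 27 pairs differing by more than 1, and between the 2 Thy1- libraries by 0.81 over 90 pairs, with 39 differing by more than 1. The log2 ratio, with 0.5 added to each count, was higher in both Thy1+ libraries than in both Thy1- libraries for 21 of 78 pairs. It was lower for 6. With 34.6% not overlapping against 33.0% of all 115 pairs of both kinds, this was near the background. The 21 include miR-374*, with 0 star counts in each Thy1+ library and 1 in each Thy1- library. Its place there rests on the added 0.5, since its star share was lower in Thy1+. By the same ratio the culture lay above all 4 fresh libraries in 14 of the 78 pairs and below them in 31. That is 57.7% against 50.4% of all 115 pairs. Of the 37 comparison pairs named 5p and 3p, 13 lay outside. The 14 include miR-138* and miR-382*, and the 31 include miR-374* and miR-295*, all at 0 star counts in culture.

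The pairs with the smallest p are described next and were chosen after their values were seen. None of them was called. miR-16* held 11.4% and 11.5% of its pair in Thy1+, 4.58% and 2.92% in Thy1-, and 1.80% in culture. The groups did not overlap, and the change was 1.77 (SE 0.62) between Thy1+ and Thy1- and -2.82 (SE 0.75, edgeR adjusted p = 0.26) in culture against Thy1+. Per RefSeq, miR-16 is made from 2 hairpins and the star strand from 1 of them, so this ratio also moves with the balance of the hairpins.

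miR-29b* held 3.64% and 2.15% in Thy1+, 0.714% and 3.39% in Thy1-, and 0.114% in culture, where 4 star counts were found. Its change in culture against Thy1+ was -4.59 (SE 1.23, edgeR adjusted p = 0.26), and miR-29b too has 2 hairpins. miR-9*, of a neural miRNA, went the other way, with 0.431% and 0.311% in Thy1+, 1.84% and 1.58% in Thy1-, and 4.39% in culture, on 2 to 27 star counts. Its change in culture against Thy1+ was 3.66 (SE 1.03, edgeR adjusted p = 0.26). When either Thy1- library was left out, miR-16*, miR-29b* and miR-9* were called in culture against Thy1+.

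miR-21* and miR-99b* rest on more counts. miR-21* held 0.359% and 0.440% in Thy1+, 0.692% and 0.517% in Thy1-, and 0.135% in culture, the lowest of the 5 libraries. Its change in culture was -1.56 (SE 0.64) against Thy1+ and -2.15 (SE 0.64, edgeR adjusted p = 0.42) against Thy1-. miR-99b* held 0.752% and 1.17% in Thy1+, 0.977% and 0.875% in Thy1-, and 0.219% in culture, a change of -2.11 (SE 0.67) against Thy1+. For both, the fresh libraries lay close together and the culture below them.

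let-7g* held 0.0386% and 0.0511% in Thy1+, 0.0947% and 0.0456% in Thy1-, and 0.00978% in culture, on 6 star counts there. Between Thy1+ and Thy1-, miR-200a*, of an epithelial family, held 12.7% and 31.3% against 4.59% and 5.58%, and miR-27b* held 9.62% and 13.5% against 2.93% and 5.43%. Their changes were 2.27 (SE 0.83) and 1.63 (SE 0.65). miR-135a* changed by 2.95 (SE 0.94) on 14 star counts in Thy1+ and 3 in Thy1-. Per RefSeq, miR-135a too is made from 2 hairpins and its star strand from 1 of them.

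**Figure D5:**
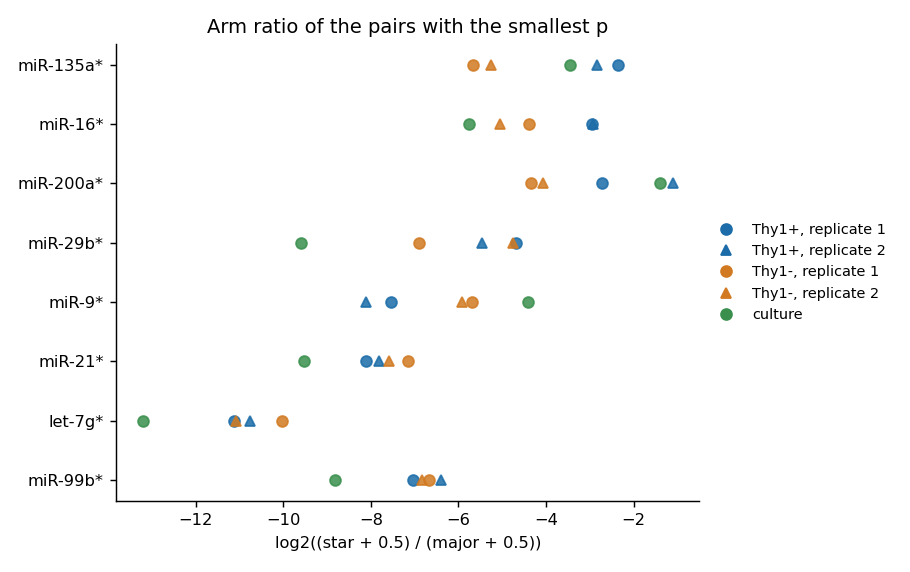
Each row is a pair with 1 of the 3 smallest p-values in an arm balance comparison, and each symbol is the log2 ratio of star to major counts (0.5 added to each) in 1 library. For miR-16*, miR-21*, miR-99b*, miR-29b* and let-7g* the culture lies below all fresh libraries, and for miR-9* above them. No pair passed the adjusted threshold.

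In some pairs both strands were called in the same direction and no change in balance was called, which does not show that the balance stayed the same. miR-29a* held 0.538% and 0.733% of its pair in Thy1+, 0.314% and 0.473% in Thy1-, and 0.408% in culture. Its balance differed by 0.64 (SE 0.70) between Thy1+ and Thy1- and by 0.02 (SE 0.34) between culture and Thy1-, where both strands were called. Between culture and Thy1+, where miR-29a* was not called, its balance differed by -0.63 (SE 0.76). miR-503* held 10.1% and 10.9% in Thy1+ against 7.01% and 14.1% in Thy1-, and miR-322* 2.29% and 2.58% against 3.68% and 1.57%. For both, the Thy1- libraries lay on either side of the Thy1+ libraries.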

How the data were processed

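The files give deposited raw tag counts: per the file headers, each tag lists its counts and its placements on mature mouse miRNAs of miRBase 12.0 with up to 2 mismatches. DESeq appears, with no version, in the submitters' processing notes. The genome build, the aligner and the trimming of adapters were not given in the sources used here. The files hold miRNA tags alone, so totals are miRNA counts. Each tag was assigned to its placement with the fewest mismatches, ties were split equally, and sums were rounded.

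Levels were tested in R 4.3.3 with edgeR 4.0.16 (filterByExpr, TMM, quasi-likelihood, two-sided, Benjamini-Hochberg over all names). Thy1+ against Thy1- used 4 libraries, and the culture comparisons used all 5. Arm balance was tested in an edgeR model with a term per library and an arm-by-group term, over pairs with at least 20 counts in each library and 10 of the rarer arm. SEs were derived from the fold change and F statistic, which is unreliable for fold changes near 0. Scripts were tested on simulated data. DESeq2 1.42.0 and limma 3.58.1 were alternatives. Ratios against groups with 1 to 3 counts carry exact counting intervals on TMM-scaled totals.

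Replicate numbers were not taken to pair libraries. Members, families and rules were chosen with earlier results of these data known. Named stars were the 10 most abundant, those above their major, up to 8 called per direction with at least 10 CPM, and the 2 most abundant of each family. Other stars named, such as miR-135a*, let-7f*, miR-431*, miR-299* and miR-708*, were chosen after their values were seen. Host genes came from GENCODE M21.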

Additional observations from a re-analysis of the deposited data

How the results depend on the processing

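Star calls between Thy1+ and Thy1- (19) ran from 0 to 19 when 1 library was left out, and came to 3 with the replicate block (miR-183*, miR-294* and miR-29a*). Same-numbered libraries did not deviate together (correlation of deviations -0.036 over 368 names), so the numbers are not taken to pair libraries. That value cannot exclude a shared origin of same-numbered libraries. Star calls in culture against Thy1+ (13) came to 34 with scaling to total counts, 21 without the low-count filter, and 0 to 15 with 1 library left out. Those in culture against Thy1- (23) came to 6 to 17 with 1 library left out. Arm balance calls (0) came to 1 when star pairs alone were fitted between Thy1+ and Thy1- (miR-135a*) and 1 in culture against Thy1+ (miR-29b*), and to 0 to 3 in each culture comparison with 1 library left out. The difference in pooled star share between Thy1+ and Thy1- (0.648 points) was -0.403 over majors of 1 hairpin, and ran from -0.0198 to 1.32 with 1 library left out. The cause was not tested. Of 505 alternatives for 44 results on single named stars, 372 stayed on the same side of the threshold, 133 no longer passed it, and 0 reversed. Depth limits stars with few counts: the floor of 3 counts is 3.20 CPM in Thy1+ replicate 1 and 0.587 CPM in culture.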
